A study of Mus musculus with 12 samples.

Results

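Glutathione S-transferases are enzymes that join the tripeptide glutathione to reactive, electron-poor compounds, so that these can be exported from the cell and excreted. The cytosolic enzymes fall into classes named by Greek letters, and 10 genes of 4 classes were followed in mouse liver: Gstm1, Gstm2, Gstm3, Gstm4 and Gstm6 of the mu class, Gsta2, Gsta3 and Gsta4 of the alpha class, Gstp1 of the pi class and Gstt1 of the theta class. They were chosen by gene symbol, and all 10 had exactly 1 probe set each, out of 19505 symbols measured. In rodent liver these enzymes are abundant in hepatocytes, and many of their genes are known to be induced through the oxidant sensor NRF2 and the xenobiotic receptors CAR and PXR.

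Liver RNA came from adult male C57BL/6J mice aged 4 to 5 months, kept at 23 °C on standard chow. The 6 offspring of UCP1-KO dams (arrays 7 to 12) were compared with the 6 offspring of WT dams (arrays 1 to 6), with 1 array per mouse. UCP1 is the brown fat protein that releases mitochondrial energy as heat. Heterozygous sires were used with both kinds of dam and all 12 offspring are labelled heterozygous, so the contrast is one of mothers. The null allele was inherited from the dam in the first group and from the sire in the second, and this difference in inheritance cannot be told apart from that in the mothers. Litters are not named, so p-values cover the spread among these animals, and siblings may be among them. The question addressed is whether the liver transcripts of these enzymes differ with the dam's genotype.

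Every one of the 10 genes read above the negative control median on all 12 arrays, with gene means of 12.49 to 18.56 on the log2 scale. The negative control median itself was 5.96 to 6.36 in offspring of UCP1-KO dams and 6.14 to 6.62 in offspring of WT dams. It was brightest on WT-dam arrays 3 to 6. The differences of the 10 genes, their median and the counts called were therefore also computed without them. That setting keeps only arrays 1 and 2 of the WT-dam group, so it rests on fewer mice than the other settings. Correlations, marker levels and the values of other genes were not computed in it. The 7 hepatocyte markers all read above the negative controls, with summed levels of 21.59 to 21.67 in offspring of UCP1-KO dams and 21.38 to 21.67 in offspring of WT dams (log2 of the summed signal). The same held for 7 of 7 Kupffer cell and 7 of 7 sinusoidal endothelial markers, and for 0 of 5 T and NK cell, 0 of 3 B cell, 0 of 4 neutrophil and 0 of 4 adipocyte markers. Stellate cell markers did so in 5 of 6, cholangiocyte markers in 2 of 5, erythroid markers in 1 of 1 and pancreatic acinar markers in 1 of 5. The summed level of the acinar markers, of which Amy2a5 read above the negative controls, was 8.49 to 8.89 in offspring of UCP1-KO dams and 8.10 to 8.51 in offspring of WT dams, and its part in the results below was not tested.

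The mu genes lie side by side on mouse chromosome 3, where the RefSeq gene table of GRCm38.p6 gives the order Gstm5, Gstm7, Gstm6, Gstm3, Gstm2, Gstm1 and Gstm4, with pseudogenes between them. Because Gstm2 and Gstm6 moved together over the 12 arrays while their neighbour Gstm1 stayed near its mean, the 250 bases before the first listed start of these 3 genes are shown, with those of Gsta3, the single gene of the 9 with a window that held the antioxidant response element core. The sequences are RefSeq's, build GRCm38.p6, 5′ to 3′ on the gene's strand, and Gsta4 is not among them. Capitals mark matches, on either strand, to TGACNNNGC (the core bound by NRF2 with small MAF proteins), GCGTG (the core bound by the AH receptor) and CCAAT (a general promoter element).
Gstm2, chr3:107986421-107986670, minus strand: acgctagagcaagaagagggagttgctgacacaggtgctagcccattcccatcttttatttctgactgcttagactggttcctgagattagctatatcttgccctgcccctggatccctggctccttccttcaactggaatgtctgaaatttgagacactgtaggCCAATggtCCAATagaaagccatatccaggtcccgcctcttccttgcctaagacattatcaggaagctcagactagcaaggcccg
Gstm6, chr3:107953467-107953716, minus strand: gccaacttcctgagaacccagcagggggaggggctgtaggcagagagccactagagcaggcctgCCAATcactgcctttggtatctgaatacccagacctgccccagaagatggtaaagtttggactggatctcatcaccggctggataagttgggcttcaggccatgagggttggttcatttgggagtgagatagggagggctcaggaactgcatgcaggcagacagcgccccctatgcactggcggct
Gstm1, chr3:108017974-108018223, minus strand: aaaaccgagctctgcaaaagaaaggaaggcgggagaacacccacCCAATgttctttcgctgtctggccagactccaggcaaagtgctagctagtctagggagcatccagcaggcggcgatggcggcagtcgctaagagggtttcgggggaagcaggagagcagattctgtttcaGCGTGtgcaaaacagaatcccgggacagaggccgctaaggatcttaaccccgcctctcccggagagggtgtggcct
Gsta3, chr1:21240335-21240584, plus strand: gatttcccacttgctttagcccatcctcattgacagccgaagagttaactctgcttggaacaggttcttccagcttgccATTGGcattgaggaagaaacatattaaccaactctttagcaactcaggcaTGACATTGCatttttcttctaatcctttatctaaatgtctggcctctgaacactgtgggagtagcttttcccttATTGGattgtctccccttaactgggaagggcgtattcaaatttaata

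In the Gstm2 window CCAAT began 85 and 77 bases before the start, in the Gstm6 window 186 and in the Gstm1 window 206 bases before it. Gstm1 has 2 listed starts and Gstm6 has 3, of which only the first is shown. CCAAT lay 97 and 91 bases before the second Gstm1 start. It lay 135 and 67 bases before the second Gstm6 start and 216 before the third. GCGTG lay 76 bases before the first Gstm1 start and 231 before the second. TGACNNNGC lay 121 bases before the Gsta3 start. Over the first windows of the 9 genes, 1 held TGACNNNGC, against 10.2% of 32851 windows of this length, 3 held GCGTG, against 28.2%, and 7 held CCAAT, against 33.8%. The 3 with GCGTG were Gstm1, Gsta2 and Gstp1. The window of Gstm3, which lies between Gstm6 and Gstm2, held none of TGACNNNGC, GCGTG and CCAAT. Such matches describe the letters of these windows only. Over the 12 arrays, Gstm3 had a Pearson's r of 0.65 with Gstm2 and 0.57 with Gstm6 (permutation adjusted p = 0.103 and 0.201 over 45 pairs).

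None of the 10 genes passed the test across all probe sets. At a limma adjusted p under 0.05 the count was 0 of 10, where 0.036% of the 22206 probe sets tested were called, and the unequal-variance test per probe set also gave 0. At an unadjusted p under 0.05 there were 3 of 10, against 13.1% of all probe sets. These were Gstm2 and Gstm6, with lower signals in offspring of UCP1-KO dams, and Gsta4, with a higher one. The groups overlapped for all 10 genes, while they did not overlap at 1.05% of all probe sets. The median log2 difference of the 10 genes was -0.06 and that of all probe sets 0.03, and 7 of 10 genes lay below 0, against 43.2% of all probe sets.

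**Figure D1:**
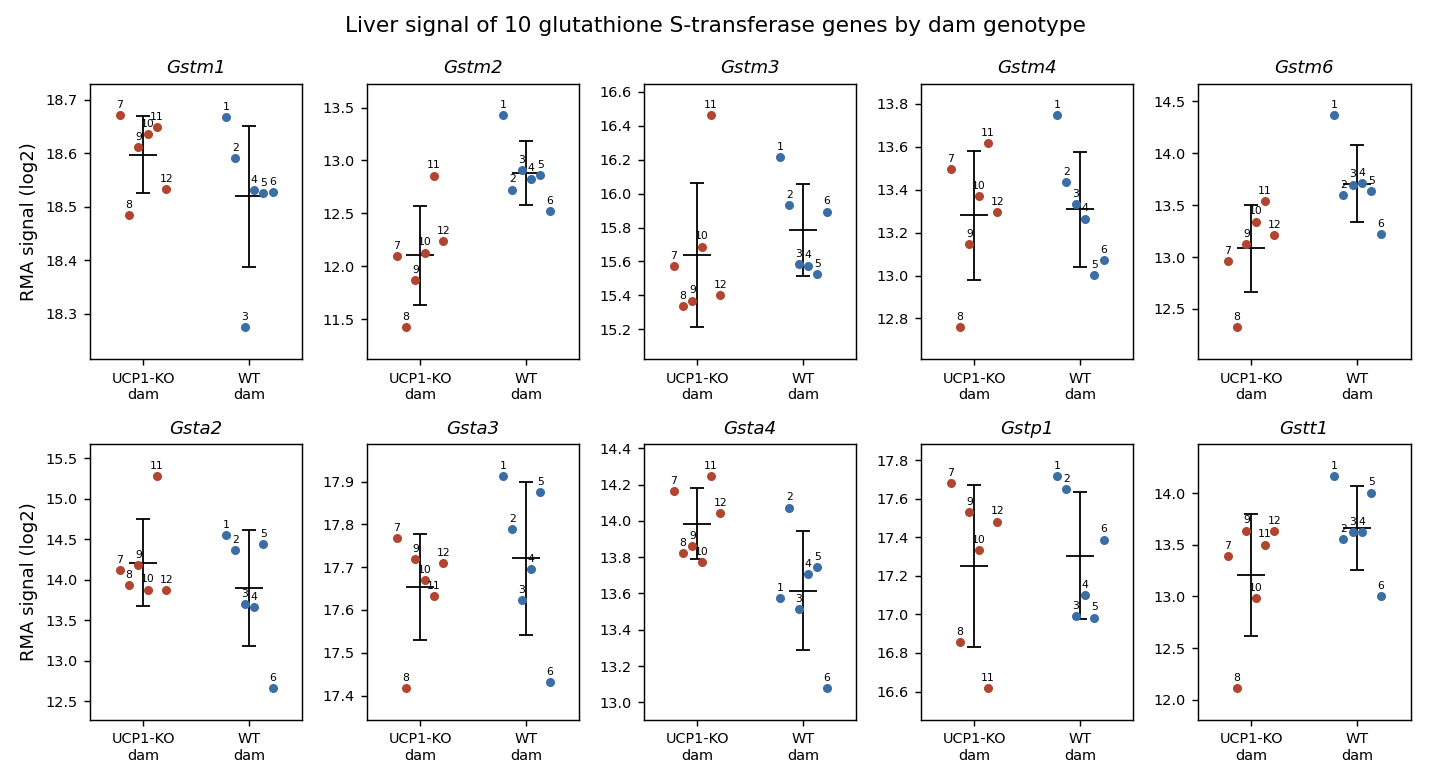
RMA signal (log2) of each gene on each array, with offspring of UCP1-KO dams on the left of each panel and offspring of WT dams on the right; points are single mice, numbers are array numbers, and bars give the mean ± SD (n = 6 each). Each panel has its own vertical scale, and the 2 groups overlap in every panel.

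Within the mu class, Gstm2 had the smallest p of the 10 genes. Its signal was lowest at 11.42, with a median of 12.11 and a highest value of 12.86, in offspring of UCP1-KO dams, against 12.52, 12.84 and 13.43 in offspring of WT dams. All but 1 of the arrays of UCP1-KO-dam offspring lay below the whole WT-dam range, and the exception, array 11, lay within it. The mean was 12.10 ± 0.47 in offspring of UCP1-KO dams and 12.88 ± 0.30 in offspring of WT dams (SD, n = 6 each), which is a log2 difference of -0.77 (limma adjusted p = 0.129, 95% interval -1.20 to -0.35) or 0.584 times the signal (interval 0.437 to 0.782). By p it ranked 196 of 22206. In whole liver, less RNA per cell and fewer cells of a type cannot be told apart.

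Gstm6, a mu gene of the same cluster, read from 12.32 through a median of 13.17 to 13.54 in offspring of UCP1-KO dams, against 13.22, 13.67 and 14.37 in offspring of WT dams. All 6 arrays of the first group lay below the WT-dam median, and WT-dam array 6 was the one that reached into their range. The log2 difference was -0.62 (interval -1.04 to -0.20, limma adjusted p = 0.196), with means of 13.08 ± 0.42 in offspring of UCP1-KO dams and 13.71 ± 0.37 in offspring of WT dams (SD, n = 6 each). UCP1-KO-dam array 8 gave the lowest value of both genes and WT-dam array 1 the highest. Without array 8 the differences were -0.64 for Gstm2 and -0.47 for Gstm6, and without WT-dam arrays 3 to 6 they were -0.97 and -0.90. The probe sequences were not used here. Mu transcripts are close relatives, so signal of one gene read by the probes of another was not tested.

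Gstm1, the main mu enzyme of mouse liver, was the steadiest of the 10 genes, with 18.48 to 18.67 (median 18.62) in offspring of UCP1-KO dams and 18.27 to 18.67 (median 18.53) in offspring of WT dams. Its log2 difference was 0.08 (interval -0.16 to 0.32, limma adjusted p = 0.815), and -0.03 without WT-dam arrays 3 to 6. These signals lie near the top of the scale, where the highest value of the whole table was 19.7, and compression of differences at that end was not tested. Whether Gstm1 and Gstm2 differ in response was not tested.

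Gstm3, an inducible mu gene, had 15.33 to 16.46 (median 15.49) in offspring of UCP1-KO dams and 15.52 to 16.22 (median 15.74) in offspring of WT dams. The highest value was that of array 11, and 3 of the other arrays of UCP1-KO-dam offspring lay below the WT-dam range. Its log2 difference was -0.15 (interval -0.54 to 0.24, limma adjusted p = 0.779). It was -0.31 without array 11 and -0.44 without WT-dam arrays 3 to 6, but -0.064 without WT-dam array 1 and -0.089 without array 8. Gstm4 had 12.76 to 13.62 (median 13.33) in offspring of UCP1-KO dams and 13.00 to 13.75 (median 13.30) in offspring of WT dams. Its difference of -0.03 (interval -0.37 to 0.31) turned to 0.08 without array 8 and to 0.06 without WT-dam array 1, and it was -0.31 (interval -0.80 to 0.18) without WT-dam arrays 3 to 6. For this gene the medians of the groups were nearly equal.

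Of the alpha genes, Gsta4, whose enzyme conjugates hydroxynonenal and related products of lipid peroxidation, read higher in offspring of UCP1-KO dams. It had 13.77 to 14.25 (median 13.95) in offspring of UCP1-KO dams and 13.08 to 14.07 (median 13.64) in offspring of WT dams. All 6 arrays of the first group lay above the WT-dam median, and of the WT-dam arrays only array 2 lay above the lowest value of the other group. The log2 difference was 0.37 (interval 0.04 to 0.70, limma adjusted p = 0.319) or 1.29 times the signal. It was 0.26 when WT-dam array 6 was left out and 0.16 when WT-dam arrays 3 to 6 were.

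Gsta2, an alpha enzyme inducible by antioxidants in rodent liver, varied most, from 13.88 to 15.28 (median 14.03) in offspring of UCP1-KO dams and from 12.67 to 14.55 (median 14.03) in offspring of WT dams. Array 11 was highest of all and WT-dam array 6 lowest. The log2 difference of 0.31 (interval -0.30 to 0.93) was 0.10 without array 11 and 0.07 without WT-dam array 6, and it turned to -0.25 when WT-dam arrays 3 to 6 were left out. Gsta3, the alpha enzyme known for protecting mice from aflatoxin, had 17.42 to 17.77 (median 17.69) in offspring of UCP1-KO dams and 17.43 to 17.91 (median 17.74) in offspring of WT dams. Its log2 difference was -0.07 (interval -0.33 to 0.19, limma adjusted p = 0.861). Leaving out WT-dam arrays 3 to 6 gave -0.20, leaving out array 6 alone gave -0.13, and leaving out UCP1-KO-dam array 8 gave -0.021.

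Gstp1 encodes the pi enzyme, which is more abundant in male than in female mouse liver. It had 16.62 to 17.68 (median 17.41) in offspring of UCP1-KO dams and 16.98 to 17.72 (median 17.24) in offspring of WT dams. UCP1-KO-dam arrays 8 and 11 lay below the WT-dam range and the other 4 above the WT-dam median. The log2 difference was -0.05 (interval -0.46 to 0.35, limma adjusted p = 0.940), a sign that turned to 0.07 without array 11 and 0.02 without array 8, and to 0.03 or 0.01 when WT-dam array 1 or 2 was left out. In the other direction it was -0.14 without array 7, -0.22 when the level of the negative controls was a covariate and -0.43 without WT-dam arrays 3 to 6.

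Gstt1, the theta enzyme that acts on small halogenated compounds, had 12.11 to 13.64 (median 13.45) in offspring of UCP1-KO dams and 13.00 to 14.17 (median 13.62) in offspring of WT dams. Arrays 8 and 10 lay below the WT-dam range. The log2 difference was -0.45 (interval -0.96 to 0.06, limma adjusted p = 0.443). It was -0.23 without array 8 and -0.65 without WT-dam arrays 3 to 6.

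**Figure D2:**
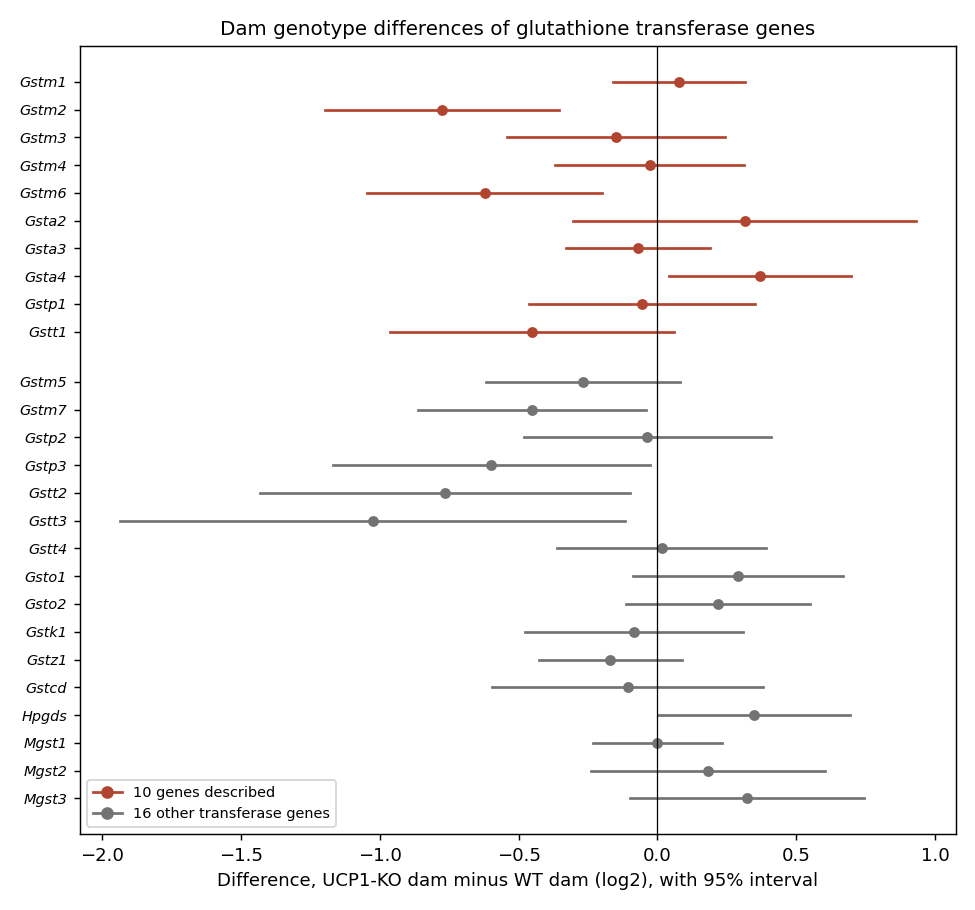
Difference between offspring of UCP1-KO dams and of WT dams on the log2 scale (points) with 95% intervals from limma (lines), for the 10 genes described and for 16 other glutathione transferase genes, of which Gstt4, Gsto2, Gstcd and Mgst2 read below the negative controls. Of the 10 genes, Gstm2 at -0.77 and Gstm6 at -0.62 lie below 0 with their whole intervals, and Gsta4 at 0.37 lies above it with its whole interval. Among the other 16 genes, the whole intervals of Gstm7, Gstp3, Gstt2 and Gstt3 lie below 0 and that of Hpgds above it.

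The remaining transferase genes of the array were read the same way. Of 19 listed, 16 were measured, 0 passed in either direction and 5 had an unadjusted p under 0.05, 1 higher and 4 lower, where 7.08% and 6% of all probe sets did so. The 3 of smallest p belong to the same classes as the genes above: Gstt2 of the theta class had 12.20 to 14.21 in offspring of UCP1-KO dams and 13.26 to 15.06 in offspring of WT dams (log2 difference -0.76, limma adjusted p = 0.308). Gstt3, also of the theta class, averaged 11.58 ± 0.85 in offspring of UCP1-KO dams and 12.61 ± 1.08 in offspring of WT dams (SD, n = 6 each, log2 difference -1.03, limma adjusted p = 0.319). Gstm7 of the mu cluster had -0.45 (limma adjusted p = 0.329). Mgst1, a microsomal enzyme singled out after its values were seen, had a difference of 0.00 (interval -0.23 to 0.23). Its mean was 18.99 in both groups, near the top of the scale, and compression of differences there was not tested. The median over these 16 genes was -0.06. In both groups 4 of them, Gstt4, Gsto2, Gstcd and Mgst2, averaged below the negative control median, and without them the median was -0.13.

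Among the 10 genes, Gstm2 and Gstm6 were the pair whose signals followed each other most closely from mouse to mouse. Of the 45 pairs, 39 (86.7%) had a Pearson's r above 0 over the 12 arrays, with a median r of 0.40. Over all pairs of the 9858 symbols brighter than the negative controls, the share was 51.5% and the median r 0.01. Of all 19505 symbols, 0.15% were brighter than Gstm1 and 7.13% brighter than Gstm2, the brightest and dimmest of the 10. The background pairs thus include many dimmer symbols, and pairs of like brightness were not examined. An adjusted permutation p under 0.05 was reached by 4 of the 45 pairs on r and by 1 on ranks. The points of a pair share the array, so anything that shifts a whole array adds to r. Each gene also enters several pairs, so the 45 pairs are not separate observations. The highest r was that of Gstm2 and Gstm6, at 0.95 (permutation p = 3e-05, adjusted p = 0.00135 over 45 pairs), with a Spearman's rho of 0.92 (permutation p = 0.00016, adjusted p = 0.0072). Within the offspring of UCP1-KO dams it was 0.89 and within those of WT dams 0.99, and without arrays 8 and 1, the 2 farthest from the median of Gstm2, it was 0.88.

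**Figure D3:**
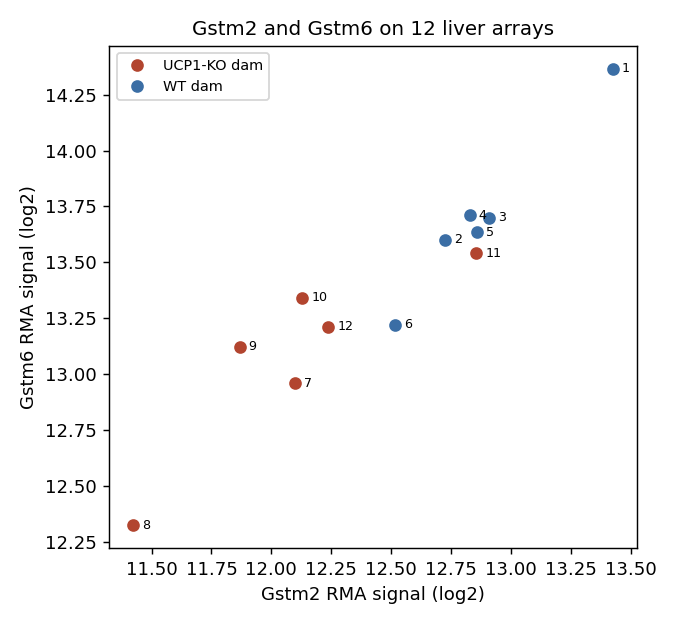
Gstm6 against Gstm2 RMA signal (both log2), 1 point per mouse with its array number, offspring of UCP1-KO dams in red and of WT dams in blue. The points lie along one rising line (Pearson's r = 0.95), with array 8 at its lower and array 1 at its upper end.

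The other 3 pairs that passed on r were Gsta3 with Gstt1 (r = 0.85, rho = 0.70), Gstm6 with Gstt1 (r = 0.83, rho = 0.55) and Gstm2 with Gstt1 (r = 0.76, rho = 0.57), with permutation p-values of 0.00045, 0.00205 and 0.00401 for r (0.0101, 0.0307 and 0.0451 adjusted). Their rho had permutation p-values of 0.0147, 0.0710 and 0.0547 (0.166, 0.291 and 0.269 adjusted), so none of the 3 passed on ranks. Without the 2 arrays farthest from the median of the first gene, r was 0.69, 0.42 and 0.36. Array 8 was among those left out each time. Leaving out the outermost arrays narrows the range of the first gene, which by itself can lower r. Within the offspring of UCP1-KO dams r was 0.88, 0.77 and 0.66 for these 3 pairs, and within those of WT dams 0.94, 0.85 and 0.85. How far the relations to Gstt1 rest on the outermost arrays was not tested. The lowest r was that of Gstm2 with Gsta4, at -0.22 (permutation p = 0.491, adjusted p = 0.670), with a rho of -0.41 (permutation p = 0.194, adjusted p = 0.451). It was 0.73 within the offspring of UCP1-KO dams, 0.18 within those of WT dams and -0.17 without arrays 8 and 1.

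**Figure D4:**
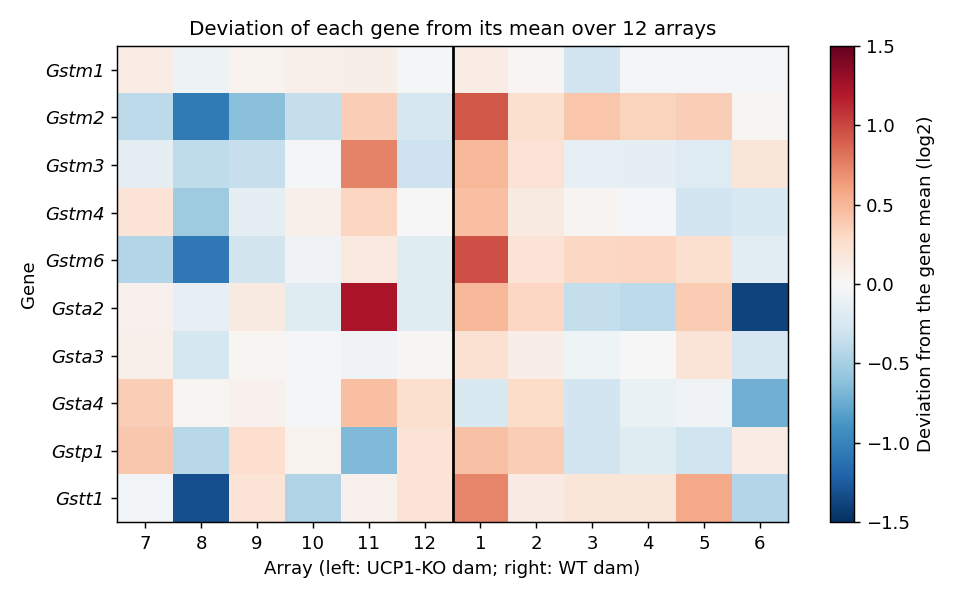
Deviation of each gene from its own mean over 12 arrays (log2, colour scale), with genes as rows and arrays as columns, offspring of UCP1-KO dams left of the black line and of WT dams right of it. Gstm2 and Gstm6 share their pattern across the columns, Gstm1 is pale throughout, and Gsta2 has its extremes on arrays 11 and 6.

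Averaged over the 10 genes, the deviation of an array from the gene means was lowest on UCP1-KO-dam array 8, at -0.52, and highest on WT-dam array 1, at 0.46. Among 9848 other symbols brighter than the negative controls, those most like this average over the 12 arrays were Ndufs8, a subunit of respiratory complex I, with r = 0.97, and Tpi1, the glycolytic triosephosphate isomerase, with r = 0.96. Next came Ctso, a cathepsin gene, with 0.93, and Zdhhc12 and Gchfr, both with 0.92. Within the dam groups the first 2 were again Ndufs8 and Tpi1, at 0.97 and 0.96. These values describe a ranking over many symbols and carry no p.

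Genes around the transferases were counted in the same fit, where 13.1% of all probe sets had an unadjusted p under 0.05. Of 16 measured genes of glutathione synthesis and recycling, 0 passed and 0 had an unadjusted p under 0.05, with a median log2 difference of 0.13. Gclm, the regulatory subunit of the rate-limiting ligase, had 0.23, Cbs, which feeds homocysteine into cysteine synthesis, 0.30 and Ggt6, of the gamma-glutamyltransferase family, -0.47 (limma adjusted p = 0.526, 0.438 and 0.416). The 12 measured peroxidase and glutaredoxin genes had 0 passing and 3 with an unadjusted p under 0.05. These were Glrx, a glutaredoxin that removes glutathione from proteins, with -0.58, and Gpx8 and Gpx7, peroxidases of the endoplasmic reticulum, with 0.66 and 0.36 (limma adjusted p = 0.198, 0.169 and 0.330). Gpx8 and Gpx7, at means of 6.06 and 6.15 in offspring of UCP1-KO dams and 5.40 and 5.78 in offspring of WT dams, were dimmer than the negative control medians, which averaged 6.21 in the UCP1-KO-dam group and 6.39 in the WT-dam group.

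Of 10 transporter genes for conjugates and glutathione, 0 passed and 0 had an unadjusted p under 0.05. Abcc4 had 0.37, Abcc3, an exporter of conjugates into blood, -0.22 and the mitochondrial carrier gene Slc25a10 -0.34. Among 22 measured NRF2 response genes, which include Gclm of the synthesis list, 0 passed and 2 had an unadjusted p under 0.05. These were Srxn1, sulfiredoxin, with -0.45 and Nfe2l2, which encodes NRF2 itself, with -0.48 (limma adjusted p = 0.185 and 0.270). Both were dim, with means of 7.77 and 7.58 in offspring of UCP1-KO dams and 8.23 and 8.06 in offspring of WT dams. The negative control medians averaged 6.21 and 6.39 in these groups. Ugdh had 0.33. The median of that list was 0.06.

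Of 21 measured CAR, PXR and AH receptor genes, 0 passed and 5 had an unadjusted p under 0.05, all 5 lower in offspring of UCP1-KO dams. Over all probe sets, 6% were lower and 7.08% higher at that threshold, and 43.2% had a difference below 0. Cyp2c54, Cyp2c37 and Cyp2c50, cytochrome P450 genes, had -1.02, -0.94 and -0.67 (limma adjusted p = 0.165, 0.227 and 0.232). Their SDs were 0.85, 0.98 and 0.66 in offspring of UCP1-KO dams, against 0.33, 0.20 and 0.21 in offspring of WT dams. Genes of the hepatocyte zones were read beside Gstm2 and Gstm6. Of 16 measured pericentral genes, which share these P450 genes, 0 passed, 14 lay below 0 and 8 had an unadjusted p under 0.05 with the lower signal in offspring of UCP1-KO dams (median -0.39). Lect2 had -0.72 and Gulo -0.59. Of 11 measured periportal genes, 0 passed, 9 lay above 0 and 3 had an unadjusted p under 0.05 with the higher signal (median 0.17), namely Etnppl with 0.84, Hsd17b13 with 0.45 and Pck1 with 0.58. The lowest limma adjusted p was 0.152 in the pericentral and 0.124 in the periportal list. The part of zonation in the values of Gstm2, Gstm6 or Gsta4 was not tested.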

How the data were processed

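The submitters' processing notes name RMA and the Transcriptome Analysis Console as the authors' tools, with versions not given in the sources used here. The deposited table holds a log2 signal for every probe set on every array. RMA corrects probe background, normalizes arrays to each other and summarises probes on the log2 scale, which compresses differences of dim probe sets. Each column was assigned to its mouse by sample identifier and to its group by the title. The 6640 control rows of 28846 were left out, and 22206 probe sets were tested with no filter, 19572 of them with 1 gene symbol from the platform annotation and 2634 unnamed here.

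All 22206 were fitted together with limma (version 3.58.1, R 4.3.3, lmFit and eBayes, two-sided) on dam genotype alone. A positive difference means a higher signal in the UCP1-KO-dam group. Benjamini-Hochberg adjustment ran over all of them, with a call under 0.05. Where a symbol of a list had several probe sets, the brightest was taken. Correlations used 100000 permutations, two-sided, with adjustment over 45 pairs. The genes and lists were chosen with earlier results of these data known. All 10 genes are named, with the 3 of smallest p of each list around them and the 5 symbols of highest r with the average deviation. The number of arrays limits the precision. Alternatives were other normalizations, filters, variance models, a negative control covariate and arrays left out.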

Additional observations from a re-analysis of the deposited data

Results flagged for a closer look

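In 3 of 20 sets of 6 arrays (10 genes in each group), the highest or lowest array stood apart from the rest of its group by a gap of more than 0.625 of the group's range. Chance alone gives about 1 such set in 20. Gsta2 read 15.28 on UCP1-KO-dam array 11, where the next array of the group was at 14.18, and without array 11 its log2 difference was 0.10 in place of 0.31. Gstm3 read 16.46 on the same array, with the next at 15.69, and its log2 difference was -0.31 in place of -0.15 without it. Gstm1 read 18.27 on WT-dam array 3, with the next at 18.52, and its log2 difference was 0.03 in place of 0.08 without that array. None of these differences passed with or without the array (limma adjusted p = 0.417 to 0.954).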

How the results depend on the processing

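In all 22 alternatives 0 of the 10 genes were called, and Gstm2, Gstm3, Gstm6, Gsta3, Gsta4 and Gstt1 kept their direction in each. Gstm2 had a log2 difference of -0.97 to -0.64 (limma and unequal-variance adjusted p = 0.0903 to 0.588) and Gstm6 of -0.90 to -0.47, both with an unadjusted p under 0.05 in 22 of 22, while Gsta4, at 0.16 to 0.46, had one in 16 of 22. Leaving out 1 array at a time gave -0.095 to 0.076 for Gstm4 and -0.14 to 0.072 for Gstp1, so their signs turned. Without WT-dam arrays 3 to 6 the sign also turned for Gstm1 (-0.031) and Gsta2 (-0.25), and the median over the 10 genes was -0.37 in place of -0.06. It was -0.11 to 0.00 with 1 array left out. With arrays 3 to 6 left out, the WT-dam mean was that of arrays 1 and 2. Their average deviation over the 10 genes was 0.46 and 0.20, against -0.29 to 0.09 on arrays 3 to 6. The reason for the higher signals on arrays 1 and 2 was not tested. The count of 8 probe sets called in the whole table was 32 with the dimmer 50% left out, 22 with a variance trend and robust estimation, 2 with the negative control covariate and 0 both in the unequal-variance test and without WT-dam arrays 3 to 6, and 1 to 112 with 1 array left out (112 when it was WT-dam array 2, 54 when it was UCP1-KO-dam array 7). Each symbol had 1 probe set, so the alternative of other probe sets gave no value. No paired analysis was possible because the groups share no replicate number.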
